A study of Homo sapiens with 6 samples.

Results

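Metallothioneins and metal response genes were followed in DU-145/tet-XISTshRNA cells, a prostate cancer line of epithelial origin that carries a tetracycline-inducible short hairpin RNA against the long noncoding RNA XIST. The 8 genes were taken by name from the 25528 gene symbols of the TPM table, and were chosen because doxycycline (DOX), the drug that induces the hairpin, binds divalent metal ions. They were the metallothioneins MT2A, MT1E, MT1F, MT1G, MT1M and MT1X, the transcription factor MTF1 and the zinc exporter SLC30A1. For 7 days, 3 cultures received 0.1% DMSO as vehicle and 3 received DOX at 500 ng/ml. All 6 samples carried the hairpin vector and had been selected with puromycin or geneticin, and no DOX-treated cells without the XIST hairpin are among these samples, so effects of the drug and of XIST silencing cannot be told apart. Measurements of XIST could not check the silencing, as XIST was listed at 0 TPM in all 6 samples, as was EIF4A1, a translation factor gene that every growing cell needs. Values are TPM (transcripts per 1000000 transcripts), in which the reads of a gene are divided by its length and by the total of its sample.

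Metallothioneins are small, cysteine-rich proteins that bind zinc, copper and cadmium in the cytoplasm and nucleus. When free zinc rises, the zinc finger factor MTF1 binds metal response elements in the promoters of the metallothionein genes and of SLC30A1, which encodes the ZnT1 protein that pumps zinc out of the cell across the plasma membrane. Metallothionein mRNA is therefore widely used as a readout of available metal, although glucocorticoids and oxidative stress also raise it. The metallothionein members lie in one cluster on chromosome 16 of GRCh38, from MT2A at 56608584 to 56609497 and MT1E at 56625475 to 56627112 to MT1X at 56682470 to 56684196, all on the plus strand. MT1M (56632659 to 56633981) and MT1F (56657731 to 56660698) lie between them on the same strand, whereas MT1G (56666730 to 56668065) is read from the minus strand. MTF1 (37809574 to 37859592) and SLC30A1 (211571568 to 211579161) are both on the minus strand of chromosome 1.

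Promoters were searched for metal response elements. The RefSeq promoter table for GRCh38.p14 held an entry for 4 of the 8 members, MT2A, MT1X, MTF1 and SLC30A1. The core of the metal response element was searched on both strands as TGCACNC or TGCGCNC in the 250 bases before each start site. MT2A had 7 matches, MT1X had 4, SLC30A1 had 1 and MTF1 had 0, with no overlap between matches. Of 35116 promoters searched, 24.8% had at least 1 match, so the single match of SLC30A1 is a common finding, whereas 0.370% had as many as MT1X and 0.0313% as many as MT2A. MT1H, a metallothionein gene outside the 8 members, had 8 matches, as many as 0.0171% of promoters. A match is a run of letters and does not show that a factor was bound. The promoters of the most abundant member (MT2A), of the member with 4 matches (MT1X), of SLC30A1 and of MT1H are shown 5′ to 3′ on the strand of the gene, with matches in capitals. They span chr16:56608334-56608583 (plus strand) for MT2A, chr16:56682220-56682469 (plus strand) for MT1X, chr1:211579162-211579411 (minus strand) for SLC30A1 and chr16:56669564-56669813 (plus strand) for MT1H.
MT2A: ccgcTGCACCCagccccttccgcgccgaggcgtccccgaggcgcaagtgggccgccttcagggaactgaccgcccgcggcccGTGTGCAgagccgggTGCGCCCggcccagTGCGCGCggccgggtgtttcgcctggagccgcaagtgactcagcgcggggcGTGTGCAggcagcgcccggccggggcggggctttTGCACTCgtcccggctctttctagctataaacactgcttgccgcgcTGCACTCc
MT1X: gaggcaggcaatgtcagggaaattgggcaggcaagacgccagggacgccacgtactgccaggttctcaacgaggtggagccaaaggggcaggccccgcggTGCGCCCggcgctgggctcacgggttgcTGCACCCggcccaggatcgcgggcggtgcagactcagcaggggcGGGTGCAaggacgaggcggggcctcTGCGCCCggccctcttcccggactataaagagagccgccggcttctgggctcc
SLC30A1: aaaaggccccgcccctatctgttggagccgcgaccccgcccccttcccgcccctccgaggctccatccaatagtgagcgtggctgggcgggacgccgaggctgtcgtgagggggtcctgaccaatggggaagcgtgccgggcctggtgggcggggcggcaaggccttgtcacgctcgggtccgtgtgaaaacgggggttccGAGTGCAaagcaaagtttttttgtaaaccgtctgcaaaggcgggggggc
MT1H: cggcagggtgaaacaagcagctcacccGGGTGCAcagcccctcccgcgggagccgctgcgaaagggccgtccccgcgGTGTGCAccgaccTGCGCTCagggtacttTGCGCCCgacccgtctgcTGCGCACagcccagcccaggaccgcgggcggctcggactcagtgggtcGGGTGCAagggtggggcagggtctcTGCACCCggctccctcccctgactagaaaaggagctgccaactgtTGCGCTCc

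**Figure D1:**
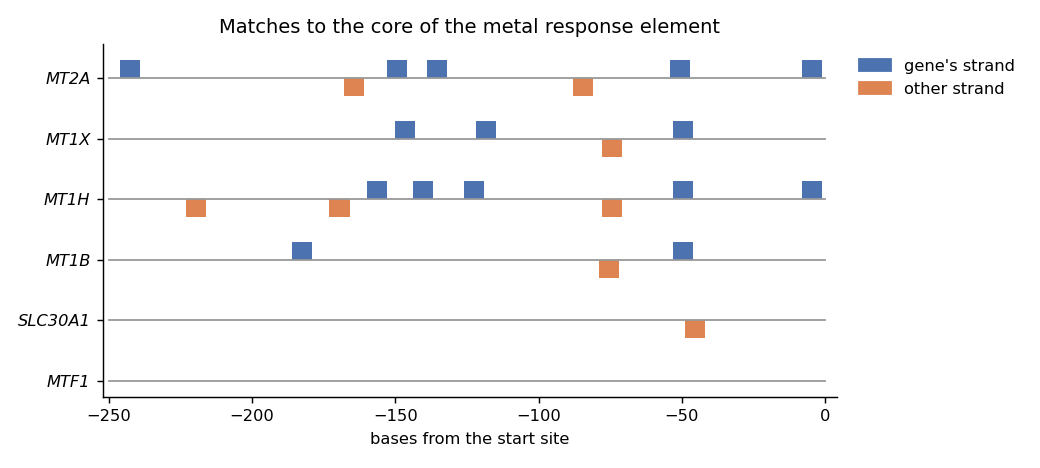
Positions of matches to the core of the metal response element in the 250 bases before the start site (x axis, bases from the start) of 4 members, MT1H and MT1B, with matches on the strand of the gene above each line and those on the other strand below. MT2A has 7 matches, MT1X 4, MT1H 8, MT1B 3, SLC30A1 1 and MTF1 0.

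The coding sequences of the metallothioneins are close copies of one another, which bears on how far their reads can be separated. The coding sequence of MT2A is 186 bases long, and the best matching transcripts of MT1E and MT1X were each 92.5% identical to it, against 91.4% for MT1F, 89.8% for MT1M and 95.2% for MT1G. The longest run identical to MT2A was 63 bases in MT1X, 65 in MT1G and 32 in each of MT1E, MT1F and MT1M. The first 90 coding bases of MT2A and MT1X (GENCODE 44) are given to show how few positions tell these mRNAs apart, with the 10 bases that differ in capitals.
MT2A: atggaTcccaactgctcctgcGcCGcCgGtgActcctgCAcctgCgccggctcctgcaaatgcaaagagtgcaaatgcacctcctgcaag
MT1X: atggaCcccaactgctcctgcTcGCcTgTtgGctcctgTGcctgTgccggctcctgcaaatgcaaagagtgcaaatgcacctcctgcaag

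Over whole transcripts, the share of 50-base stretches that also occur in another gene was 4.48% for MT2A, 7.10% for MT1E, 1.24% for MT1F, 16.4% for MT1G, 18.2% for MT1M and 18.7% for MT1X. By contrast, the share was 0.642% for MTF1 and 0% for SLC30A1. Reads from such stretches could have been split between genes, and the counting tool of the authors is not given in the sources used here. For MT1X, 273 of the 341 shared stretches occur in an annotated gene without a symbol, and whether that gene took reads was not tested. The levels of MT1G and MT1M are therefore less certain than those of MT2A, MT1E and MT1F. How uncertain MT1X is beside them was not measured.

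Samples differed in depth and composition, which sets how the members can be compared. Reads recovered from the deposited values were between 5453993 (vehicle replicate 3) and 64561146 (DOX replicate 1). The 7SL RNAs RN7SL1, RN7SL2 and RN7SL3 together with RN7SK and RPPH1, 5 small RNAs in all, took 67.5% to 76.0% of the TPM in vehicle samples and 76.0% to 82.6% in DOX samples, so that the TPM of other genes was lower in DOX samples as a whole. Across the 11672 genes tested, the median log2 fold change was -0.35 on the TPM scale and 0.02 after each sample was scaled by the median of ratios to the other samples. Member values are accordingly given on both scales, the second being called scaled TPM. The epithelial markers KRT8, KRT18, KRT19, EPCAM and CDH1 were all at 1 TPM or more (5 of 5), with summed levels of 214 to 358 TPM in vehicle and 257 to 286 TPM in DOX samples. None of 4 fibroblast markers and none of 3 endothelial markers reached 1 TPM (0 in each list), while 2 of 4 leukocyte markers did, with sums of 17.2 to 21.8 TPM in vehicle and 11.7 to 15.1 TPM in DOX samples and CD3E at 0, and the part of these in the member values was not tested.

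DOX treatment was not associated with a called change in any metallothionein, in MTF1 or in SLC30A1. Calls required a fold change over 1.5 together with an adjusted p-value under 0.05, from limma fitted on log2(TPM + 1) over all genes. Of the 8 members, 7 passed the expression minimum of a mean of 1 TPM, and 0 of these were called in either direction, by limma on TPM or scaled TPM or by limma voom on recovered reads. Over all genes tested, calls on the TPM scale made up 2.98% (lower) and 0.0257% (higher), and on the scaled TPM 0% in each direction. The shares were 19% and 0.129% on the TPM scale with the replicate block, and 2.34% and 1.37% with voom and the block. When the p-value was left unadjusted (p under 0.05), 0 members passed the fold change in these fits, beside 19% of all genes lower and 0.12% higher on the TPM scale, 1.14% and 1.17% on the scaled TPM, and 3.07% and 2.09% with voom and the block. No test compared the 7 members with other genes. The median log2 fold change of the 7 members was -0.15 on the TPM scale and 0.28 on the scaled TPM, beside -0.35 and 0.02 over all genes. DOX and vehicle samples overlapped for every member on both scales, except for MTF1 on the TPM scale. In such bulk RNA, fewer expressing cells and less RNA per cell cannot be told apart.

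The members covered a wide range of levels, from among the most abundant mRNAs of the cell to the edge of detection. By mean TPM over the 6 samples, MT2A stood at rank 23 and MT1E at rank 62 of all 25528 gene symbols, MT1X at rank 527 and MT1F at rank 3337. SLC30A1 (rank 7423), MTF1 (rank 7958) and MT1M (rank 9283) were low, and MT1G (rank 15941) was detected in a single sample. MT2A exceeded MT1E, MT1E exceeded MT1X, MT1X exceeded MT1F and MT1F exceeded SLC30A1 in TPM without overlap of their ranges over samples. The ranges of SLC30A1, MTF1 and MT1M overlapped, so their order is not separated by the spread between samples.

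MT2A, a widely expressed metallothionein, was the most abundant member in these cells. In order of replicate number, its TPM was 746.6, 702.8 and 1180 with vehicle and 880.9, 756.9 and 676.5 with DOX. Vehicle replicate 3, the shallowest sample, was the highest, and the other 5 values were close together. Vehicle samples averaged 877 ± 264 TPM and DOX samples 771 ± 103 TPM (SD, n = 3 each). After scaling, the order turned, with 719, 640 and 845 scaled TPM in vehicle samples against 1283, 761 and 735 in DOX samples. DOX replicate 1, the deepest sample, then stood above the rest and the groups still overlapped. The log2 fold change was -0.15 on the TPM scale (standard error 0.24, 95% interval -0.64 to 0.34, adjusted p = 0.651 from limma) and 0.29 on the scaled TPM (interval -0.19 to 0.78, adjusted p = 0.489 from limma). Without vehicle replicate 3 the TPM value was 0.08, and without DOX replicate 1 the scaled value was 0.03. Its recovered reads numbered 1090 to 20872 per sample, so counting error was small beside the spread between samples.

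MT1E, a metallothionein of the MT1 group, came second. Its TPM was 322.0, 317.7 and 576.6 in vehicle samples and 328.9, 434.2 and 357.7 in DOX samples, with means of 405 ± 148 and 374 ± 54.4 TPM (SD, n = 3 each). Again the highest TPM was in vehicle replicate 3, while all 3 DOX values were above those of vehicle replicates 1 and 2. On the scaled TPM, vehicle samples had 310, 289 and 413 and DOX samples 479, 436 and 389. Only vehicle replicate 3 then reached into the range of the DOX samples. The log2 fold change moved from -0.07 on the TPM scale (95% interval -0.60 to 0.47, adjusted p = 0.854 from limma) to 0.38 on the scaled TPM (interval 0.02 to 0.74, adjusted p = 0.303 from limma). With the recovered reads, fitted by limma voom with the replicate number as a block, it was 0.40 (interval 0.11 to 0.70, adjusted p = 0.0640), the lowest adjusted p of any metallothionein member in the fits that kept all samples, and this fit called 1.37% of genes higher and 2.34% lower.

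MT1X and MT1F, both further MT1 isoforms, were less abundant. MT1X had 62.3, 63.0 and 102.2 TPM in vehicle samples and 62.4, 59.5 and 77.8 TPM in DOX samples. Vehicle replicate 3 was again the highest, and 4 of the 6 values lay within 59.5 to 63.0 TPM. Scaled TPM values of MT1X were 60.0, 57.4 and 73.2 with vehicle and 90.9, 59.8 and 84.5 with DOX, where DOX replicates 1 and 3 were above all vehicle samples and DOX replicate 2 was not. Its log2 fold change was -0.16 on the TPM scale (95% interval -0.72 to 0.41, adjusted p = 0.687 from limma) and 0.28 on the scaled TPM (interval -0.10 to 0.67, adjusted p = 0.409 from limma). For MT1F, the TPM was 11.5, 17 and 22.5 in vehicle samples and 13.8, 14.4 and 10.7 in DOX samples. All DOX values were below vehicle replicates 2 and 3, and vehicle replicate 1 lay among them. On the scaled TPM, MT1F had 11.1, 15.5 and 16.1 with vehicle and 20.1, 14.5 and 11.6 with DOX, with DOX replicate 1 as the highest. MT1F had a log2 fold change of -0.33 on the TPM scale (95% interval -0.87 to 0.21, adjusted p = 0.374 from limma) and 0.09 on the scaled TPM (interval -0.36 to 0.55, adjusted p = 0.828 from limma).

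MT1M and MT1G, the remaining MT1 isoforms, were near the limit of detection. MT1M had 3.57, 5.31 and 0 TPM in vehicle samples and 3.73, 2.09 and 1.17 TPM in DOX samples. The value of 0 came from vehicle replicate 3, the sample with the fewest reads, and the highest recovered number was 82 reads in DOX replicate 1. The log2 fold change of MT1M was 0.05 on the TPM scale (95% interval -0.64 to 0.73, adjusted p = 0.923 from limma), although the mean TPM was 2.96 with vehicle and 2.33 with DOX, and it moved to -0.76 without vehicle replicate 3. On the scaled TPM it was 0.27 (interval -1.04 to 1.58, adjusted p = 0.825 from limma), the widest interval of the members. MT1G was seen in 1 sample, vehicle replicate 1, at 0.359 TPM from 1 recovered read, and was listed at 0 in the other 5. An exact two-sided permutation test of log2(TPM + 1) (p = 1.0) could not separate its groups. With 1 sample above 0, every grouping of 3 against 3 gives a difference of the same size. A change in MT1G was not detectable at this depth.

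**Figure D2:**
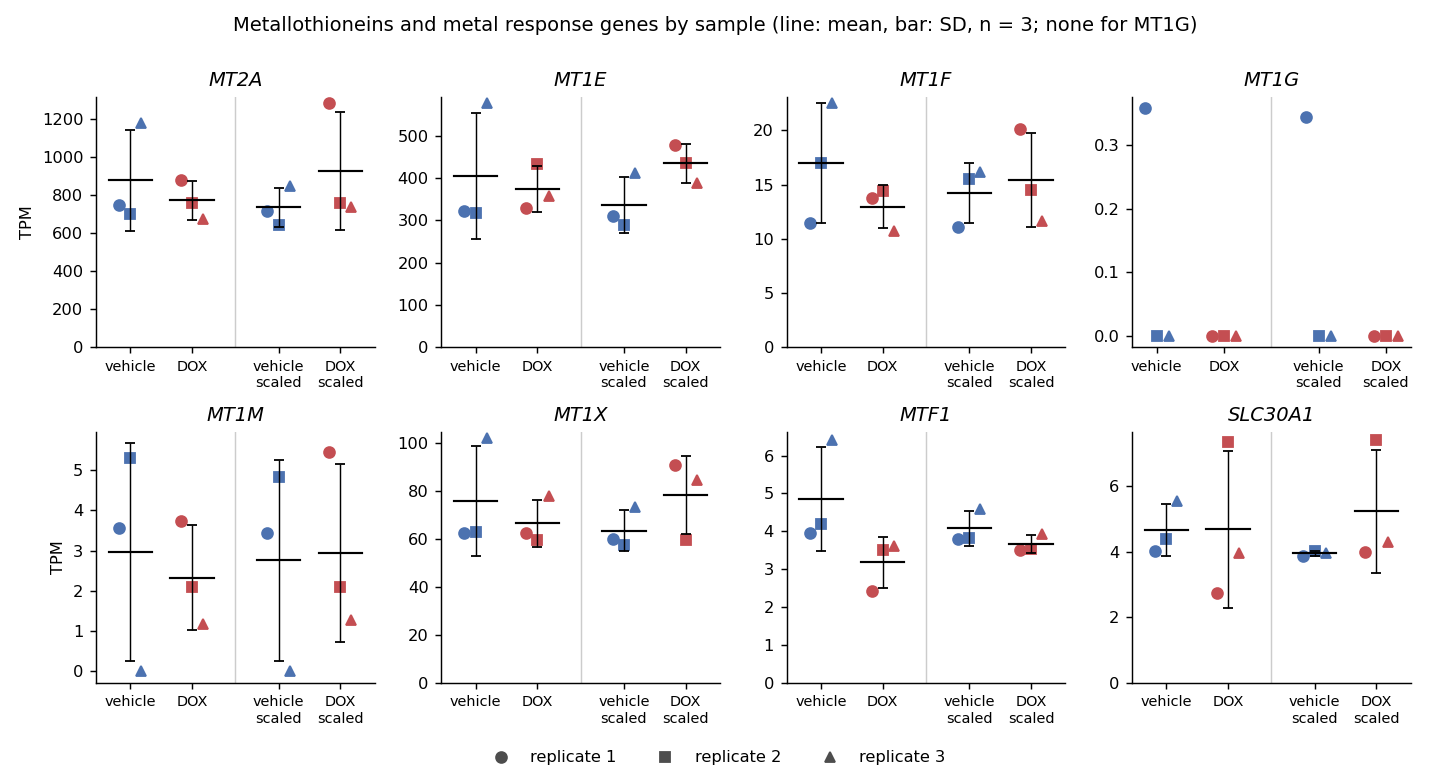
TPM (y axis) of the 8 members in each of the 6 samples, as deposited on the left and after median-of-ratios scaling on the right of each panel, with vehicle in blue and DOX in red, the marker shape giving the replicate number, and line and bar giving mean and SD (n = 3). Vehicle replicate 3 is the highest sample of 5 of the 8 members as deposited and of 1 after scaling, where DOX replicate 1 is the highest of 5.

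MTF1, the metal-sensing activator of the metallothionein genes, was the only member whose groups did not overlap on the TPM scale. Its TPM was 3.95, 4.19 and 6.42 in vehicle samples and 2.41, 3.51 and 3.62 in DOX samples, with means of 4.86 ± 1.36 and 3.18 ± 0.667 TPM (SD, n = 3 each). Every DOX sample was thus under every vehicle sample, which was so for 30.7% of all genes tested on this scale. The log2 fold change was -0.47 (standard error 0.23, 95% interval -0.93 to -0.02, adjusted p = 0.157 from limma), and with the replicate block the adjusted p from limma was 0.0409 at the same fold change, which is under the 1.5-fold minimum, in a fit that called 19% of genes lower and 0.129% higher. After scaling, the values were 3.80, 3.82 and 4.6 in vehicle samples and 3.52, 3.53 and 3.93 in DOX samples. The groups then overlapped, and the log2 fold change moved to -0.12 (interval -0.41 to 0.16, adjusted p = 0.632 from limma).

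SLC30A1, the zinc exporter that MTF1 activates, varied more among DOX than among vehicle samples. It had 4.01, 4.39 and 5.53 TPM in vehicle samples and 2.74, 7.35 and 3.94 TPM in DOX samples. DOX replicate 2 was the highest of the 6 and DOX replicate 1 the lowest. Scaling brought the vehicle samples to 3.86, 4.0 and 3.96 and the DOX samples to 4.0, 7.39 and 4.29 scaled TPM, so that replicates 1 and 3 of DOX lay close to the vehicle values and DOX replicate 2 stood apart. The mean rested on that sample, with 5.23 ± 1.88 scaled TPM with DOX and 3.94 ± 0.0752 with vehicle (SD, n = 3 each). The log2 fold change was -0.06 on the TPM scale (95% interval -0.56 to 0.43, adjusted p = 0.857 from limma) and 0.29 on the scaled TPM (interval -0.13 to 0.72, adjusted p = 0.435 from limma). DOX replicate 2 was not the highest sample of MT2A or MT1X on either scale. On the TPM scale it was the highest DOX sample of MT1E (434.2 TPM) and of MT1F (14.4 TPM).

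**Figure D3:**
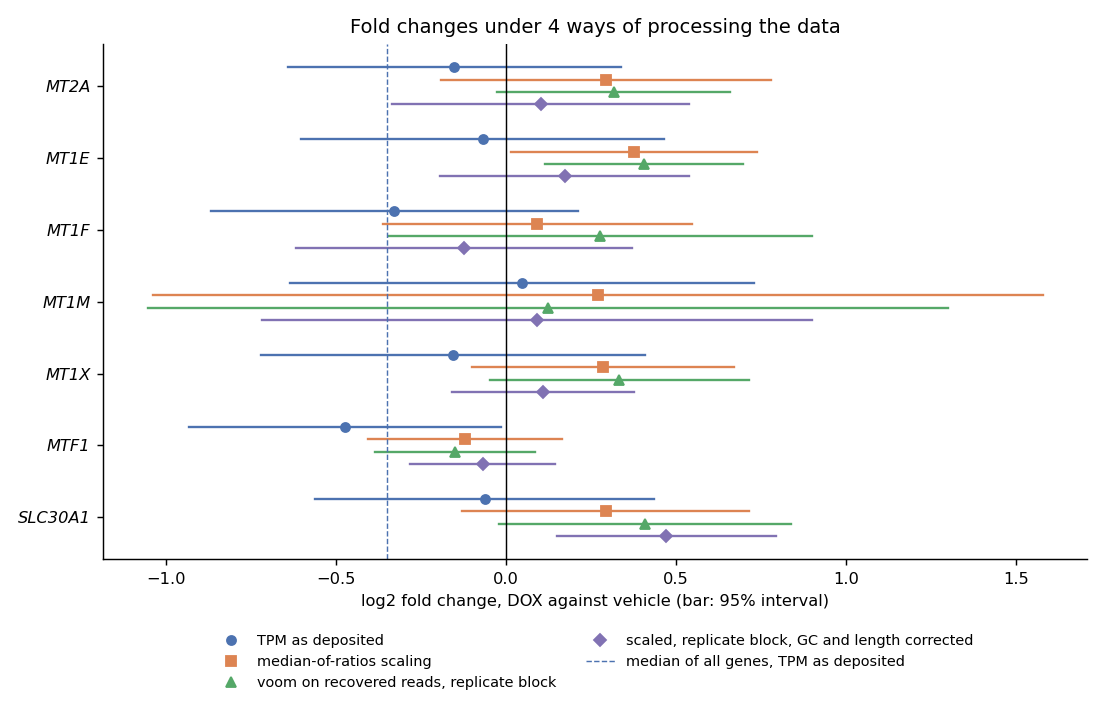
Log2 fold change of DOX against vehicle (x axis, bars give 95% intervals) of the 7 members that passed the expression minimum, under 4 ways of processing. Deposited TPM values (blue) lie to the left of the scaled values (orange) for every gene, the dashed line marks the median of all genes at -0.35, and no member was called under any of the 4.

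The direction of most members depended on the scaling. On the TPM scale 6 of the 7 members had a negative log2 fold change, the exception being MT1M, and on the scaled TPM 1 of the 7 did, which was MTF1. A correction for GC content and length, fitted with the scaling and the replicate block, also affected the metallothioneins. Exonic length was 914 bases for MT2A and 1852 for MT1F, and GC content was 52.8% for MT1X and 55.4% for MT1F. Under this correction the log2 fold changes were 0.10 for MT2A, 0.17 for MT1E, 0.11 for MT1X and -0.12 for MT1F, each nearer to 0 than the scaled value or, for MT1F, of the other sign. SLC30A1, which is longer and less GC-rich, moved to 0.47 (95% interval 0.15 to 0.79, adjusted p = 0.270 from limma).

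Ratios between metallothioneins within a sample do not depend on the scaling, and most shares of the family overlapped between the groups. Summed over the 15 metallothionein genes and pseudogenes in the table, the family reached 1241, 1209 and 2084 TPM in vehicle samples and 1409, 1356 and 1218 TPM in DOX samples. Vehicle replicate 3 alone set the higher vehicle mean. After scaling the sums were 1263 ± 204 with vehicle and 1580 ± 410 with DOX (SD, n = 3 each), with overlap. MT2A made up 58.3 ± 1.77% of the family TPM with vehicle and 58.0 ± 3.95% with DOX, and MT1E 26.6 ± 0.917% and 28.2 ± 4.45% (SD, n = 3 each). MT1X made up 5.05 ± 0.156% and 5.07 ± 1.14%, and MT1F 1.14 ± 0.245% and 0.973 ± 0.0933%. Each of these shares overlapped between the groups. The ratio of MT1E to MT2A was 0.431, 0.452 and 0.489 in vehicle samples and 0.373, 0.574 and 0.529 in DOX samples, the DOX values lying on both sides of the vehicle range. MT1A made up 1.90 ± 0.323% with vehicle and 1.41 ± 0.216% with DOX, which did not overlap, and this difference of shares was not tested. MT1A came with 29 to 340 recovered reads per sample, and its log2 fold change was -0.55 on the TPM scale (adjusted p = 0.194 from limma, or 0.0261 with the replicate block), which is under the 1.5-fold minimum. On the scaled TPM it was -0.11 (adjusted p = 0.838 from limma, or 0.814 with the block), and with voom and the block it turned to 0.16 (adjusted p = 0.760 from limma voom).

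**Figure D4:**
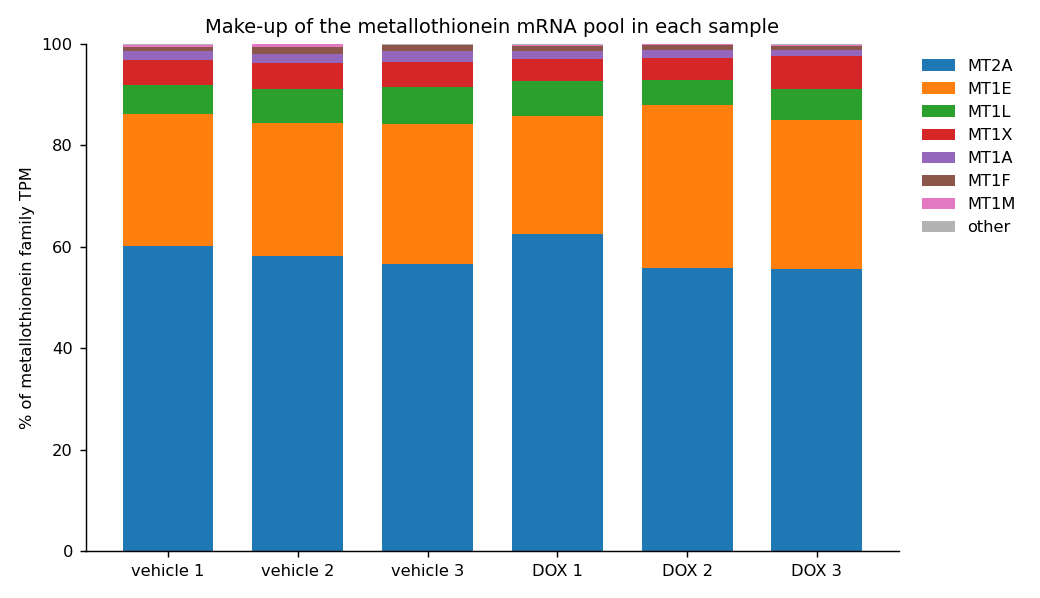
Share of each metallothionein gene in the summed TPM of the family (y axis, %) in each of the 6 samples. MT2A takes 55.6% to 62.5% and MT1E 23.3% to 32.0% of the family in every sample, and the ranges of vehicle and DOX samples overlap for both.

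Of the other family genes, MT1L, MT1A and MT1DP passed the expression minimum, and none of them was called on either scale (0 of 3). MT1L, annotated as a pseudogene, ranged from 67.2 to 150.8 TPM. However, all 137 of its 50-base stretches (100%) occur in the same other annotated gene, which has no symbol. Whether that gene was counted apart from MT1L is not known, so the level of MT1L is uncertain. MT1B, MT1H, MT1HL1 and MT1JP were listed at 0 in all 6 samples, and MT3 and MT1IP were each seen with 1 read in 1 sample. A listed 0 may be a failed estimate, as EIF4A1 was also listed at 0, so no level was read for MT1H, whose promoter is printed with the others.

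Over the 6 samples, the scaled log2 levels of MT2A followed those of MT1E (r = 0.78), MT1X (r = 0.75) and MT1F (r = 0.72), but not those of MT1M (r = 0.15), SLC30A1 (r = -0.13) or MTF1 (r = -0.22). These coefficients describe 6 samples that also share depth and composition, and DOX replicate 1 was the highest sample of MT2A, MT1E, MT1X and MT1F. Among 7187 genes with a mean of at least 5 TPM, those with the pattern most like MT2A were LPCAT4 (r = 0.995), MYL6B (r = 0.991), ZFYVE26 (r = 0.990), SLC35A4 (r = 0.988) and MIF (r = 0.985).

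Other genes of metal handling were examined in lists of zinc, copper, iron and other divalent metal transport. Further lists held MTF1 with other transcription regulators, and glucocorticoid response genes, the last because glucocorticoids also induce metallothioneins. Of 74 genes tested, 4 fell and 0 rose on the TPM scale, beside 2.98% and 0.0257% of all genes, and 0 were called by limma after scaling, where 1 was lower and 0 higher without adjustment. With the replicate block 17 were called lower on the TPM scale and 0 higher, beside 19% and 0.129% of all genes. These calls also depended on single samples, with 12 genes lower when vehicle replicate 1 was left out and 11 for DOX replicate 2, beside 10.8% and 20.2% of all genes. The count was 2 for DOX replicate 1 (1.05% of all genes) or 3 (1.18%), and 0 for vehicle replicate 2 (0.00857%) or 3 (0%). The genes called were STEAP2, a metalloreductase (log2 fold change -0.88), ATP2B1, a plasma membrane calcium pump (-0.998), and the glucocorticoid-inducible genes ZFP36, which encodes an mRNA decay factor (-1.15), and SGK1, which encodes a kinase (-0.83). On the scaled TPM these values were -0.50, -0.60, -0.71 and -0.47, with adjusted p-values from limma of 0.280 to 0.330. With voom and the replicate block, ATP2B1 was still called lower (log2 fold change -0.66, adjusted p = 0.0137 from limma voom), as were 2.34% of all genes. In that fit STEAP2 had -0.58 (adjusted p = 0.0119 from limma voom), which is under the 1.5-fold minimum. ZFP36 (-0.72, adjusted p = 0.0710 from limma voom) and SGK1 (-0.62, adjusted p = 0.0634 from limma voom) were not called there.

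Zinc transporters showed no called gene on the TPM scale. Among 6 exporters of the SLC30 family tested, 0 were called lower or higher (1 lower with the replicate block, which put 19% of all genes lower). Their median log2 fold change was -0.52 on the TPM scale and -0.12 on the scaled TPM. SLC30A1 had the highest value of these exporters and SLC30A7, which loads zinc into the secretory pathway, the lowest, at -0.86 on the TPM scale and -0.45 on the scaled TPM. Among 10 importers of the SLC39 family, 0 were called (1 lower with the replicate block), with medians of -0.34 and 0.04. SLC39A10, a zinc importer of the plasma membrane, had 24.2, 30.9 and 37.2 TPM in vehicle samples and 11.8, 18.4 and 21.4 TPM in DOX samples. All DOX values were below all vehicle values, on the scaled TPM as well, where this held for 9.22% of all genes, with log2 fold changes of -0.82 (adjusted p = 0.0669 from limma) on the TPM scale and -0.39 (adjusted p = 0.281 from limma) on the scaled TPM. SLC39A3, also a zinc importer, had the highest value of the importers, at 0.15 on the TPM scale and 0.45 on the scaled TPM. It was called higher with voom and the replicate block (log2 fold change 0.65, adjusted p = 0.0301 from limma voom), as were 1.37% of all genes. In that fit SLC30A7 was at -0.50 (adjusted p = 0.0178 from limma voom) and SLC39A10 at -0.43 (adjusted p = 0.0233 from limma voom). Both were under the 1.5-fold minimum and so were not called.

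For the 14 genes of iron handling tested, 0 were called on the TPM scale (3 lower with the replicate block, beside 19% of all genes). Their median was -0.46 on the TPM scale and -0.03 on the scaled TPM. FTH1, the ferritin heavy chain that stores iron, had 1702, 1635 and 1657 TPM in vehicle samples and 1398, 1465 and 1561 TPM in DOX samples. Its values were below those of vehicle in every DOX sample, as for 30.7% of all genes tested on this scale. The log2 fold change of FTH1 was -0.18 and turned to 0.27 on the scaled TPM. CYBRD1, a ferric reductase, had the lowest value of the iron list, at -0.83 on the TPM scale and -0.40 on the scaled TPM. Of 14 copper genes, 1 was called lower (STEAP2), with medians of -0.24 and 0.16, and COX17, a copper chaperone of the mitochondria, had the highest value, at 0.09 on the TPM scale and 0.49 on the scaled TPM. Of 16 genes of magnesium, calcium and manganese transport, 1 was called lower (ATP2B1), with medians of -0.44 and -0.01. The 7 transcription regulators listed with MTF1, itself included, had 0 calls and medians of -0.47 and -0.09, between MTF2 as the lowest and USF2 as the highest. Whether each of them acts at metal response elements was not tested. The 7 glucocorticoid receptor and response genes had the lowest medians of the lists, -0.71 on the TPM scale and -0.35 on the scaled TPM. Of these, 2 were called lower on the TPM scale, beside 2.98% of all genes. The 8 metallothionein family genes tested had medians of -0.22 and 0.22.

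**Figure D5:**
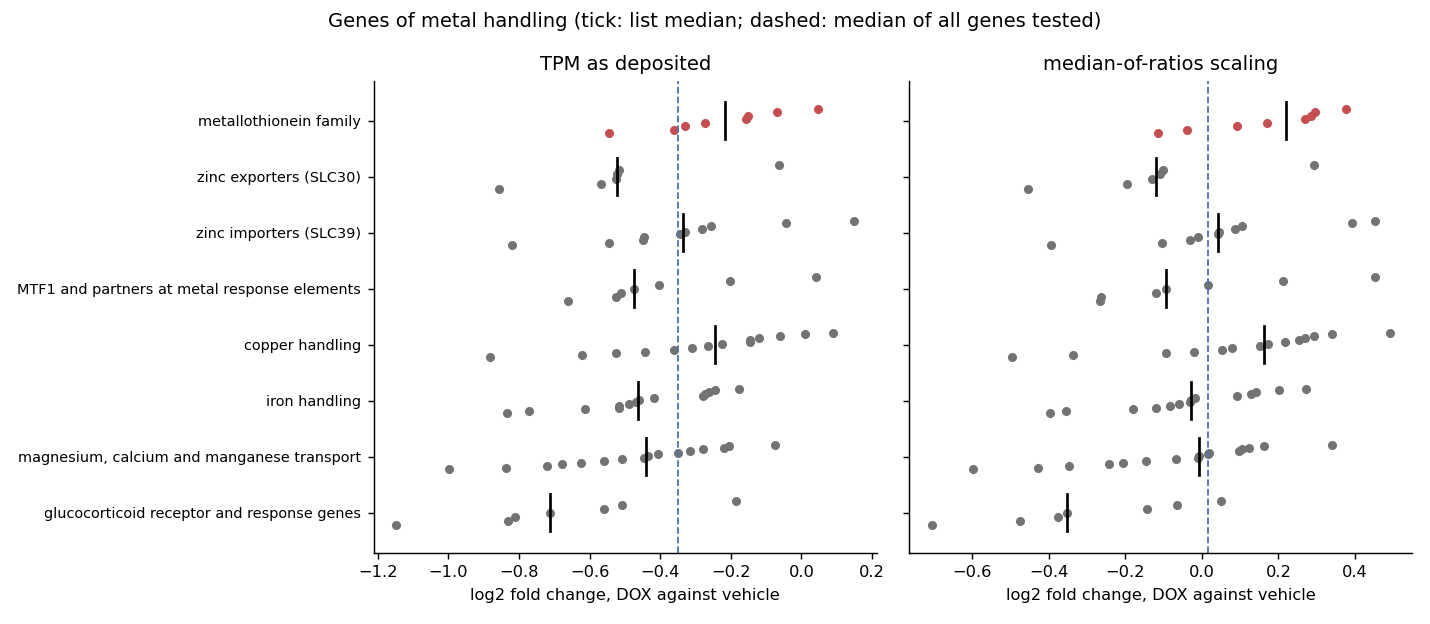
Log2 fold change of DOX against vehicle (x axis) of each gene tested in 8 lists, on deposited TPM (left) and after median-of-ratios scaling (right), with a tick at each list's median and a dashed line at the median of all genes. The metallothionein family (red) has medians of -0.22 and 0.22, beside -0.35 and 0.02 for all genes.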

How the data were processed

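RNA-seq libraries from 3 vehicle and 3 DOX samples of one cell line were assigned to groups by their titles. The labels name cultures in triplicate, and the paper's methods describe its replicates in general as independent and biologic. p-values measure the spread between these samples. The authors prepared stranded mRNA libraries, used STAR for alignment to GRCh38 and deposited TPM per gene symbol, which sums to 1000000 in each sample. The methods add a release-like suffix to the build and speak of raw feature counts. The counting tool, its strand setting and the gene lengths are not given in the sources used here. The authors also deposited a DESeq2 table for DOX against vehicle with log2 fold changes, standard errors, Wald statistics and p-values, which were not used, and the mean of normalized counts, a signal that was used with TPM to recover reads (98.0% of 30989 low values came within 0.05 of a whole read, with less exact values for short genes).

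Groups were compared in limma 3.58.1 (R 4.3.3) with eBayes and a variance trend on log2(TPM + 1), over 11672 genes whose mean TPM was 1 or more, with Benjamini-Hochberg adjusted p-values. Fold changes on this scale understate those of low genes. Members under the minimum were tested by an exact permutation test (SciPy 1.17.1). Alternatives were median-of-ratios scaling, TPM without 5 small RNAs, a pseudocount of 0.1, no minimum, the replicate number as a block, limma voom on recovered reads, a correction for GC content and length (splines with 5 degrees of freedom, GENCODE 44, 93.0% of tested genes matched) and leaving out each sample in turn. Scaled fits without single samples were added after the data were seen. Replicate numbers were taken to pair the samples from correlations alone (r of 0.566, 0.235 and 0.207 across genes for the deviations of same-numbered samples), as their meaning is not stated in the labels. Samples with different numbers were not correlated, so the pairing was not tested, and all fits with the replicate block rest on it. The fits were also run on simulated data, in which all samples shared the same mean composition and had no replicate effect. That run therefore does not show how the fits handle the composition shift or the replicate block of these samples. All members were named, with, in each other list, the genes called and those with the lowest and highest fold change, and the 5 genes most correlated with MT2A. Members and lists were chosen with earlier results of these data known. Python 3.11.15, pandas 2.3.3, Biopython 1.88 and matplotlib 3.10.9 were used.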

Additional observations from a re-analysis of the deposited data

How the results depend on the processing

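No member passed the threshold under any alternative (0 of 161 member values, in which the scaled fits with the replicate block were entered more than once). However, 6 of the 7 tested members changed sign with the processing, MT1M only where a sample was left out (-0.76 without vehicle replicate 3 and -0.24 without DOX replicate 1 on the TPM scale). Median-of-ratios scaling, without or with the replicate block, gave log2 fold changes of 0.29 for MT2A, 0.38 for MT1E, 0.092 for MT1F, 0.28 for MT1X and 0.29 for SLC30A1. Leaving 5 small RNAs out of the TPM gave 0.20, 0.29, 0.0079, 0.20 and 0.25 for the same genes. The values were 0.31, 0.40, 0.25, 0.37 and 0.29 with voom on recovered reads, and 0.32, 0.40, 0.28, 0.33 and 0.41 with voom and the replicate block. With the GC and length correction they were 0.10 for MT2A, 0.17 for MT1E, 0.11 for MT1X and 0.47 for SLC30A1, and MT1F, which was positive after scaling, moved to -0.12. MTF1 kept its negative sign in all 15 alternatives, from -0.58 to -0.29 when samples were left out on the TPM scale. When each sample was left out in turn on the TPM scale, values ranged from -0.29 to 0.082 for MT2A, from -0.22 to 0.21 for MT1E, from -0.57 to -0.11 for MT1F, from -0.76 to 0.57 for MT1M, from -0.28 to 0.075 for MT1X, from -0.38 to 0.20 for SLC30A1 and from -0.22 to 0 for MT1G. On the scaled TPM, leaving out samples moved MT1F between -0.11 and 0.27 (-0.11 without DOX replicate 1, -0.068 without vehicle replicate 1) and MT1M between -0.51 and 0.76 (-0.51 without vehicle replicate 3, -0.16 without DOX replicate 1).

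The count of 348 genes called lower became 0 after scaling, without the small RNAs, without a minimum, and with scaling and the replicate block (with or without the GC and length correction). It became 46 with a pseudocount of 0.1, 2217 with the replicate block, 1 with voom and 273 with voom and the block, and 0 to 2363 when single samples were left out. After scaling, limma still put 133 genes lower and 137 higher at the fold change and a p under 0.05 without adjustment. The count of 3 genes called higher became 15 with the replicate block, 160 with voom and the block, 0 with voom alone and 0 to 25 when single samples were left out. Among the other metal lists, the 4 genes called lower became 17 with the replicate block, 1 with voom and the block (beside 1 higher), and 0 under the other alternatives with all samples kept, with 0 to 12 when samples were left out. The cause of these changes was not tested. Recovered reads were few for MT1M (0 to 82 per sample) and MT1G (0 or 1), and changes of these genes could be measured only coarsely.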
